A study of Mus musculus with 2 samples.

Results

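The C-type lectin and killer lectin receptors of the mouse meninges were followed across cell classes and between an uninjured and an injured library. Members were all genes whose symbol begins with Clec and a digit, is Cd209 with a letter from a to g, or begins with Klr and a letter from a to k. This rule took 64 of the 32285 genes in the count tables and uses symbols only. All 64 were matched by gene identifier to the GENCODE annotation of the mm10 build, where 49 lay on chromosome 6, 10 on chromosome 8 and 5 elsewhere. Both libraries came from the dorsal meninges of male C57BL/6 wild-type mice (C57BL/6J in the methods of the study) of 10 weeks, given in another label as 10 to 12 weeks. The Sham library pooled 5 mice taken 1 week after a sham procedure, and the TBI library pooled 5 mice taken 1 week after a mild closed-skull traumatic brain injury. Live singlet cells, negative for the dye DAPI, were sorted with no marker of cell type, about 4000 cells per library were loaded, and 3′ ends were sequenced with unique molecular identifiers (UMIs). Each group was thus a single pool, with no replicate, so that the differences below compare these 2 libraries and the intervals cover counting error only.

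The C-type lectin-like domain is a fold that binds sugars in some proteins and protein ligands in others. On macrophages and dendritic cells such receptors capture glycosylated material or signal through adaptors such as Fcer1g and Tyrobp (the activating members) or through phosphatases such as Ptpn6 (the inhibitory members). On natural killer (NK) cells and some T cells, the Klr genes of the natural killer gene complex encode receptors that read MHC class I molecules, stress-induced ligands or Clec2 proteins. A smaller set, including Clec14a on vessels and the secreted products of Clec3b and Clec11a, belongs to endothelium and connective tissue.

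After filtering, 2043 Sham cells (7866611 UMIs, median 2764 per cell) and 3773 TBI cells (13940740 UMIs, median 2663) remained. Members took 0.228% of these UMIs in Sham and 0.204% in TBI, and 76.3% of the 5816 cells held at least 1 member UMI. Cells were clustered without the member genes, and clusters were named only by other markers, so that the levels of members are not built into the classes. In each of the 19 named classes the class's own markers summed to a higher level than in the rest of the cells in both libraries. Naming by these markers largely set that in advance, so it is no separate check of the names. Red cell genes summed to 1855 CPM (UMIs relative to all UMIs of a class, scaled to a common total) in the Sham and 228 CPM in the TBI macrophage-like cells, and the fibroblast markers to 26.6 and 527 CPM in the NK-like cells. The 2 libraries shared 14 barcode sequences among the cells kept, and no log2 ratio moved beyond its interval when these were removed.

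Of the 64 members, 61 had a UMI in the filtered cells and 58 had at least 3. Clec2l, Clec4b2 and Clec2e had 1 or 2 UMIs, while Clec2h, Clec4f and Clec3a had none. The 43 members with at least 100 UMIs are described one by one. The 15 between 3 and 79 UMIs were Clec2f, Clec2g, Clec12b, Clec4a4, Klra6, Klra5, Klra10, Klrc3, Klrb1, Clec4e, Clec1b, Clec18a, Clec4g, Cd209e and Klrg2. For 17 of the 43 the class with the highest CPM, averaged over the libraries, was NK-like. Macrophage-like cells led for 5, dendritic-like and plasmacytoid dendritic-like cells for 4 each, monocyte-like and migratory dendritic-like cells for 3 each, endothelial-like, fibroblast-like and neutrophil-like cells for 2 each, and pineal-like cells for 1. The leading class was the same in both libraries for 38 of the 43. Because only 3′ ends were counted, the levels of different genes are not compared with each other below.

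**Figure D1:**
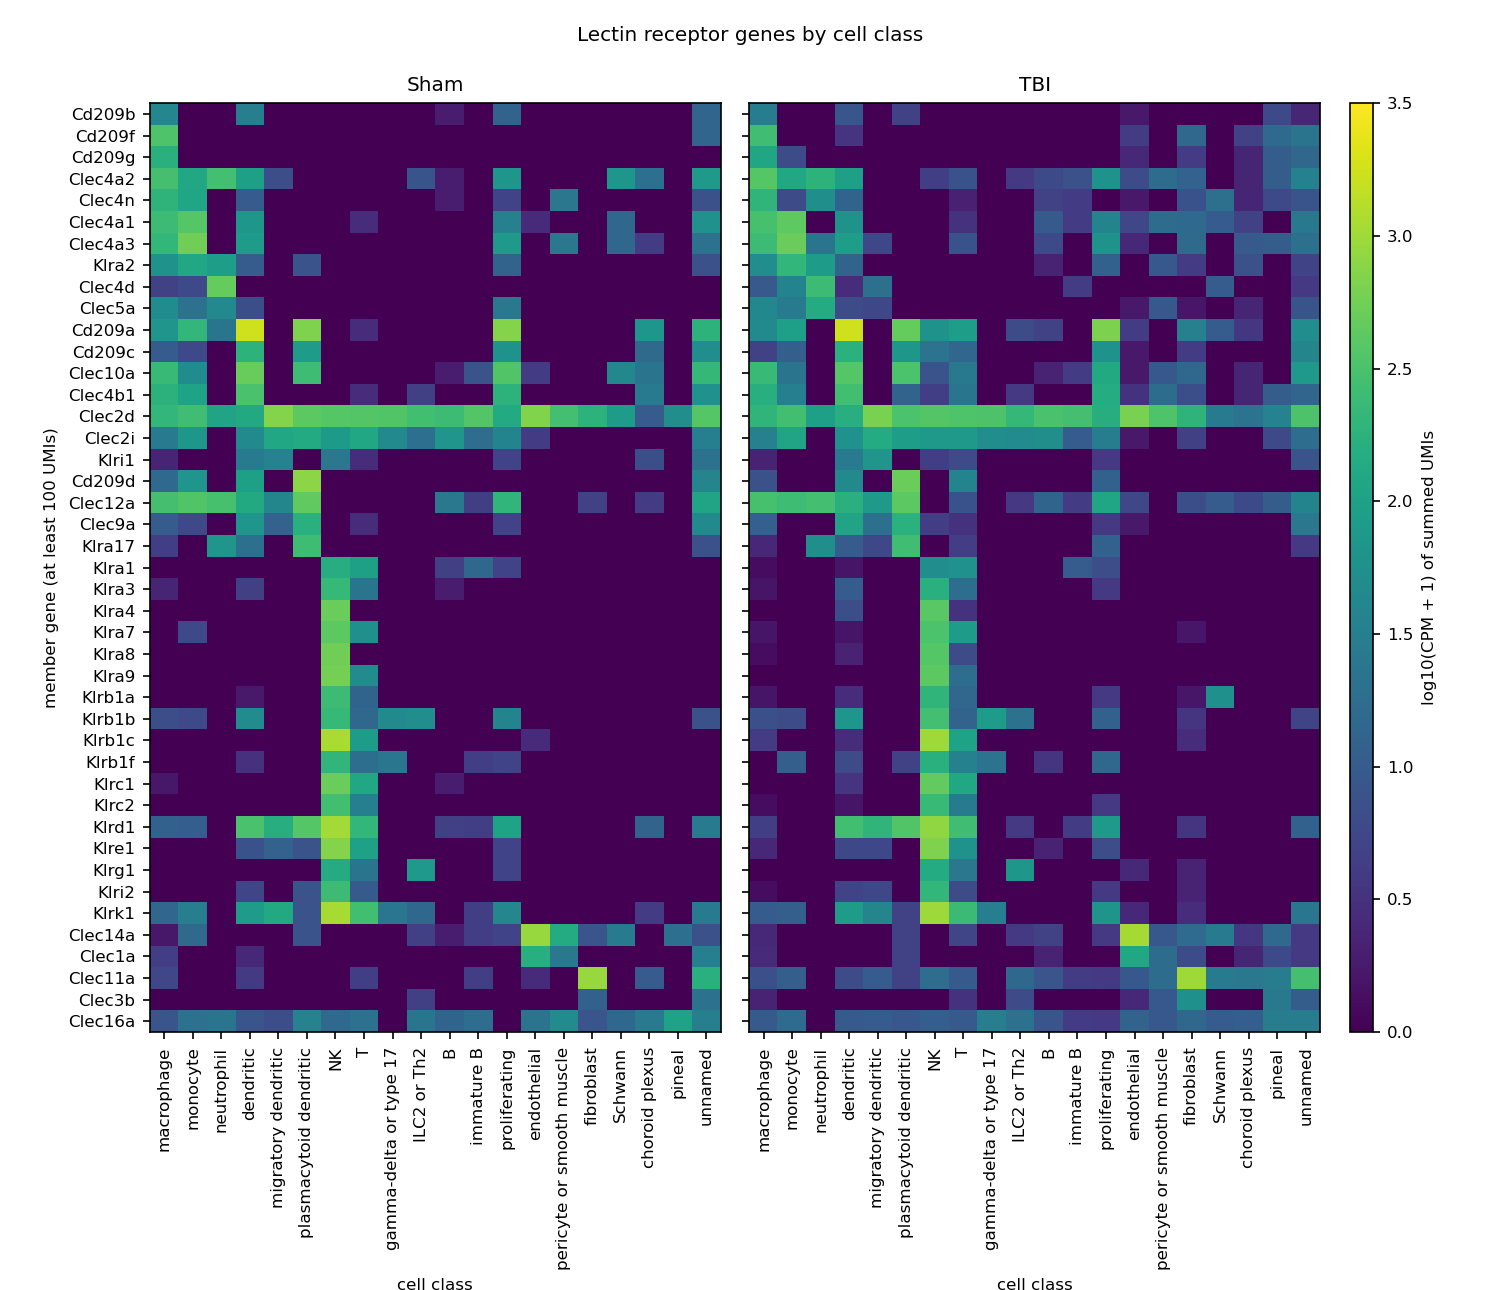
Level of the 43 members with at least 100 UMIs (rows) in each cell class (columns), as log10 of CPM plus 1 from summed UMIs, in the Sham library (left) and the TBI library (right). Klrb1 and Klrc genes and most Klra genes fill the NK-like column and, mostly more weakly, the T-like column. Klra2 and Klra17 have no UMI in the NK-like column. Klra2, Klra4 and Klra8 have at most 5 UMIs in the T-like column of either library. Cd209f and Cd209g lie almost wholly in the macrophage-like column, and Clec2d is spread over most classes.

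Among the activating receptors of myeloid cells, Clec4n, which encodes Dectin-2, a receptor for fungal mannans, was a macrophage-like gene with 91.2% of its UMIs there. Its level was 191 CPM (95% interval 169 to 214) in Sham and 196 CPM (182 to 212) in TBI. Clec4b1, an ITAM-coupled relative encoded nearby, led in dendritic-like cells at 312 and 277 CPM and was also found in macrophage-like cells at 178 and 163 CPM. Clec4d, a partner of Mincle in sensing mycobacterial lipid, was highest in the neutrophil-like cells, at 477 CPM in Sham and 248 CPM in TBI from 22 and 23 UMIs. Clec4e, which encodes Mincle itself, was highest in the same cells with 6 and 15 UMIs. Clec5a, whose product signals through the adaptor of Tyrobp, was read from 75 Sham and 147 TBI UMIs in macrophage-like cells, at 49.7 and 42.5 CPM. The neutrophil-like class held only 16 and 26 cells, and its intervals were wide.

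Clec9a, the receptor with which type 1 dendritic cells recognise exposed actin of dead cells, was highest in plasmacytoid dendritic-like cells, at 164 CPM in Sham and 170 CPM in TBI. Within the dendritic-like class it was concentrated in the subcluster named as the type 1 subset by other markers such as Xcr1, Irf8 and Itgae. There it reached 445 CPM in Sham and 418 CPM in TBI, and 86.7% and 85.7% of the cells held a UMI. The remaining dendritic-like subclusters lay between 8.56 and 29.2 CPM in Sham and between 0 and 28.1 CPM in TBI. B-like cells, which do not use the gene, had no Clec9a UMI in either library.

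The genes of the DCIR family were read in monocyte-like and macrophage-like cells, but not with the same order of these classes. Clec4a1 measured 381 and 428 CPM in the monocyte-like class and 252 and 302 CPM in the macrophage-like class of Sham and TBI. Clec4a3 measured 556 and 496 CPM in the monocyte-like and 208 and 254 CPM in the macrophage-like cells. Clec4a2, which encodes DCIR1, was instead highest in the macrophage-like cells, with 77.4% of its UMIs there, and measured 120 CPM in the monocyte-like cells of each library. Clec12a, an inhibitory receptor for uric acid crystals, was spread over the myeloid classes, with 437 and 411 CPM in plasmacytoid dendritic-like cells, 296 and 298 CPM in macrophage-like cells and 134 and 165 CPM in dendritic-like cells. Klra2, a Ly49 gene by name, was likewise a myeloid gene, with 125 CPM in Sham and 204 CPM in TBI monocyte-like cells and no UMI in the NK-like cells of either library.

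The Cd209 genes, a tandem family of receptors for mannose and fucose related to DC-SIGN, divided between classes. The 7 genes lie on chromosome 8 between 3743397 and 4137707. Cd209a was a dendritic-like gene at 1790.0 CPM (1720 to 1862) in Sham and 1773 CPM (1710 to 1838) in TBI, with 82% of its UMIs in that class. The proliferating-like cells came next at 717 and 645 CPM. Cd209c followed the same class at 184 and 169 CPM. In contrast, Cd209f and Cd209g placed 96.4% and 96.9% of their UMIs in macrophage-like cells, and Cd209b placed 71.6% there. Cd209d was highest in plasmacytoid dendritic-like cells, at 786 CPM (649 to 943) in Sham and 522 CPM (437 to 619) in TBI, intervals that did not overlap. That class held only 19 Sham and 42 TBI cells, and the part of single cells in this difference was not tested. Clec10a, a galactose-type uptake receptor, was highest in dendritic-like cells at 488 and 373 CPM and was also present in macrophage-like cells at 237 and 232 CPM. Within the macrophage-like class, Cd209f and Cd209g were found in cluster 6, led by C5ar1, Fcrls, Folr2 and Lyve1, and in cluster 9, led by Ccl8 and Pla2g2d and shallow in depth. Cluster 7, led by Cx3cr1, Fcgr4 and Slamf9, held 7 Sham and 4 TBI UMIs of Cd209f against 354 and 701 in cluster 6.

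In macrophage-like cells (325 Sham, 708 TBI), Cd209f and Cd209g of the Cd209 family were lower in TBI and the DCIR receptors slightly higher. Cd209f was 347 CPM in Sham and 268 CPM in TBI, a log2 ratio of TBI over Sham of -0.37 (-0.53 to -0.21). Cd209g was 167 and 119 CPM, a log2 ratio of -0.49 (-0.72 to -0.26). Cd209b, at 41.1 and 28.6 CPM, had a log2 ratio of -0.53 (-0.996 to -0.04), and Cd209a, at 64.9 and 46.8 CPM, one of -0.48 (-0.84 to -0.10). The rarer Cd209c (14 and 13 UMIs) and Cd209d (22 and 22 UMIs) were also lower, at -1.30 and -1.20. The intervals of all 6 lay below 0, but 4 of these held 0 once 1 Sham cell was left out. One cell held 26 of the 98 Sham UMIs of Cd209a, another 13 of the 62 of Cd209b, and another 7 of the 14 of Cd209c. Without the Sham cell with most UMIs of the gene, the log2 ratios were -0.0494 (-0.45 to 0.38) for Cd209a, -0.20 (-0.70 to 0.34) for Cd209b, -0.37 (-1.75 to 1.25) for Cd209c and -0.93 (-1.89 to 0.06) for Cd209d. Those of Cd209f and Cd209g were then -0.25 (-0.41 to -0.09) and -0.32 (-0.56 to -0.07). The DCIR genes went the other way. Clec4a2 was 296 CPM in Sham and 371 CPM in TBI, a log2 ratio of 0.33 (0.17 to 0.49). For Clec4a1 the log2 ratio was 0.26 (0.09 to 0.43), and for Clec4a3 it was 0.28 (0.10 to 0.48). None of these differences reached 1.5-fold except those of Cd209c and Cd209d. As a mean over cells, which weights deep and shallow cells alike, the log2 ratio of Cd209b was 0.34 and that of Clec4a2 was 0.05, whereas those of Cd209f and Cd209g stayed within their intervals. With the members included in the clustering, that of Cd209a was 0.0455 and that of Cd209c was -0.25. With predicted doublets removed and cells clustered anew, that of Cd209a was -0.996.

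By the 1.5-fold rule, 1 of the 24 members with at least 20 UMIs in macrophage-like cells was higher in TBI (Clec4d, 6 and 31 UMIs) and 3 were lower (Klrd1, Cd209d and Cd209c). Over all 9694 genes tested in that class, 7.44% were higher and 5.17% lower by as much. The median log2 ratio of the members was -0.04, against 0.01 over all genes tested. The named members whose intervals held 0 were Clec12a, Clec10a, Clec4n, Clec2d, Clec4b1, Clec5a, Klra2, Klrk1, Clec9a and Clec2i, with log2 ratios from -0.49 for Klrk1 to 0.30 for Clec2i.

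**Figure D2:**
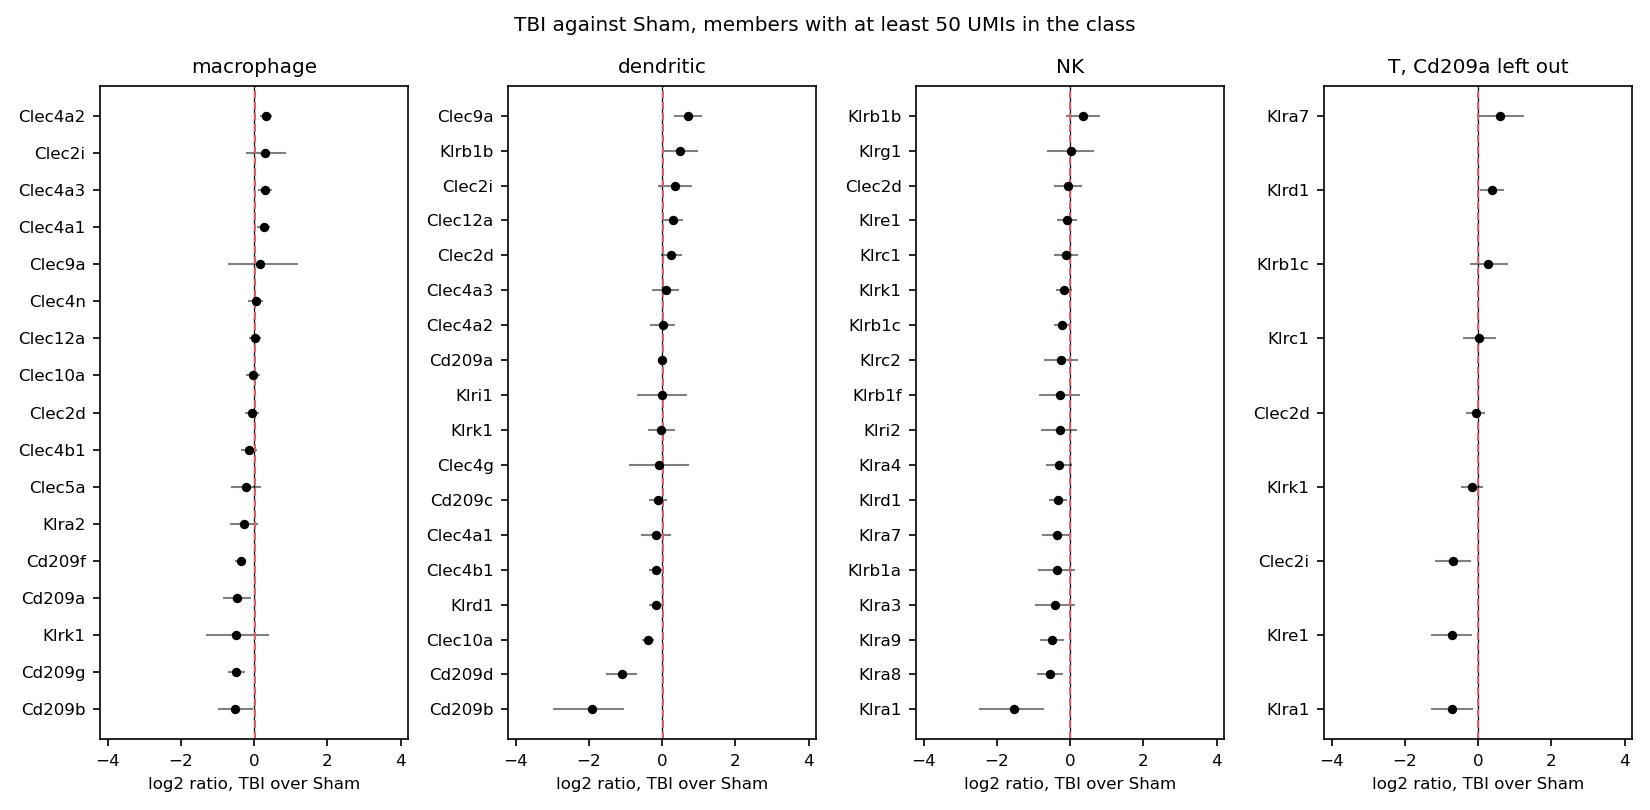
Log2 ratio of TBI over Sham (points) with exact binomial counting intervals (bars) for members with at least 50 UMIs in the macrophage-like, dendritic-like, NK-like and T-like classes, with the median of all genes tested as a dashed line. Cd209 genes lie at the bottom of the macrophage-like panel and Clec4a genes near its top, Clec9a leads the dendritic-like panel, and 16 of the 18 NK-like members lie below 0.

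The macrophage-like clusters did not take equal shares of the 2 libraries. Cluster 6 made up 26.8% of the class in Sham and 38.7% in TBI, cluster 7 31.1% and 35.7%, and cluster 9 42.2% and 25.6%. In cluster 6, Cd209f was 660 CPM in Sham and 444 CPM in TBI, a log2 ratio of -0.57 (-0.76 to -0.38). Cd209g was 293 and 188 CPM there, a log2 ratio of -0.64 (-0.92 to -0.35). Cd209b, at 91 and 44 CPM, had a log2 ratio of -1.05 (-1.59 to -0.49) in this cluster. Without the Sham cell with most UMIs of the gene these were -0.40 (-0.59 to -0.20), -0.35 (-0.66 to -0.04) and -0.63 (-1.22 to 0.0065). In cluster 9 the intervals of all 3 held 0, with log2 ratios of -0.17, -0.36 and 0.73. The difference between clusters was not tested. The DCIR genes were higher in cluster 7, with log2 ratios of 0.37 for Clec4a1, 0.33 for Clec4a2 and 0.37 for Clec4a3. In cluster 6 only Clec4a2 had an interval above 0, at 0.27 (0.04 to 0.50). Clec4n was lower in cluster 6, at -0.27 (-0.51 to -0.02), or -0.17 (-0.42 to 0.09) without 1 Sham cell, and higher in cluster 7, at 0.73 (0.13 to 1.41), where it had 28 and 95 UMIs.

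**Figure D3:**
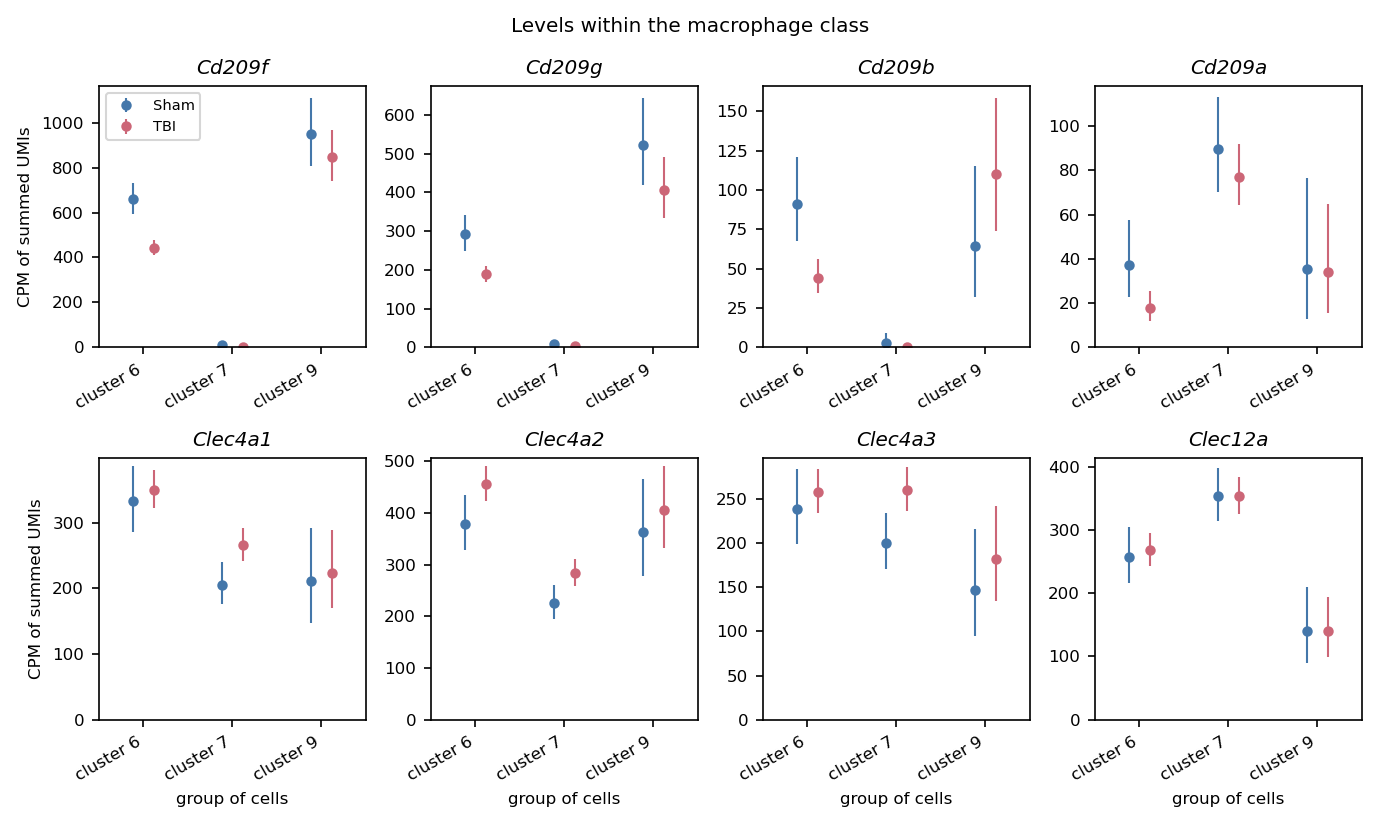
CPM of summed UMIs with exact Poisson intervals for 8 members in the 3 macrophage-like clusters, Sham in blue and TBI in red, with no bar where a count was 0. Cd209f, Cd209g and Cd209b are near 0 in cluster 7 and lower in TBI than in Sham in cluster 6, while the Clec4a genes are present in all 3 clusters.

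In dendritic-like cells (144 Sham, 207 TBI), Clec9a was higher in TBI, and the uptake receptors Clec10a and Cd209b were lower. Clec9a was 66.7 CPM in Sham and 108 CPM in TBI, a log2 ratio of 0.70 (0.33 to 1.08). The type 1 subset, in which it was concentrated, made up 10.4% of the class in Sham and 16.9% in TBI, and within that subset the log2 ratio of Clec9a was -0.10 (-0.52 to 0.35). Without that subset the log2 ratio of the class was 0.0454. Clec12a and Klrb1b, at 0.30 (0.03 to 0.58) and 0.50 (0.05 to 0.97), were the others with an interval above 0. That of Clec12a was 0.21 (-0.07 to 0.49) without the TBI cell with most of its UMIs. Subcluster 4, with 22 cells in each library (15.3% of the class in Sham and 10.6% in TBI), was led by Retnla, Trem2, C1qb and Mmp12 and matched no subset. Its macrophage markers summed to 13024 and 14718 CPM, where the other dendritic-like subclusters lay between 1535 and 3206 CPM, and its dendritic markers to 3578 and 2866 CPM, with 13 and 12 of 13 having a UMI. No log2 ratio of the class left its interval without this subcluster, and that of Clec12a was then 0.20.

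Cd209d was 96.8 CPM in Sham and 45.0 CPM in TBI dendritic-like cells, a log2 ratio of -1.10 (-1.53 to -0.69). Of its 132 Sham UMIs, however, 50 came from 1 cell, and without that cell the log2 ratio was -0.43 (-0.90 to 0.04). Subcluster 2, led by Cd7, Ifitm1 and Runx2 and holding that cell, had 108 Sham and 38 TBI UMIs, while subcluster 1 had 22 and 34. Clec10a had a log2 ratio of -0.39 (-0.55 to -0.23), and Cd209b, with 41 and 13 UMIs, one of -1.93 (-2.99 to -1.04), or -1.54 (-2.63 to -0.60) without the Sham cell with most of them. Without the type 1 subset, in which Clec10a had no UMI, its log2 ratio was -0.20, and as a mean over cells it was 0.0681. The mean over cells gave -0.62 for Cd209d. Cd209a had a log2 ratio of -0.01 (-0.09 to 0.06) in the class as a whole. It was nonetheless higher in TBI in subcluster 1, at 0.31 (0.20 to 0.41), and lower in subcluster 2, at -0.25 (-0.38 to -0.12). In the type 1 subset it had 0 Sham and 41 TBI UMIs, and 2.86% of the TBI cells of that subset held one.

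Of the 24 members with at least 20 UMIs in the dendritic-like class, 2 were higher by 1.5-fold (Clec9a and Klra3) and 4 lower (Cd209b, Cd209e, Cd209d and Klra17). Single cells held 10 of the 17 Sham UMIs of Cd209e, 8 of the 25 of Klra17 and 6 of the 16 TBI UMIs of Klra3, and without them the log2 ratios were -0.32, -0.41 and 0.64, with intervals that held 0. The same thresholds took 9.1% and 5.31% of the 8230 genes tested. The member median was -0.01, against 0.02 over all genes. The remaining named members, Cd209c, Clec2d, Clec2i, Clec4a1, Clec4a2, Clec4a3, Clec4b1, Clec4g, Klrd1, Klri1 and Klrk1, had intervals that held 0 and log2 ratios from -0.18 for Klrd1 to 0.34 for Clec2i.

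**Figure D4:**
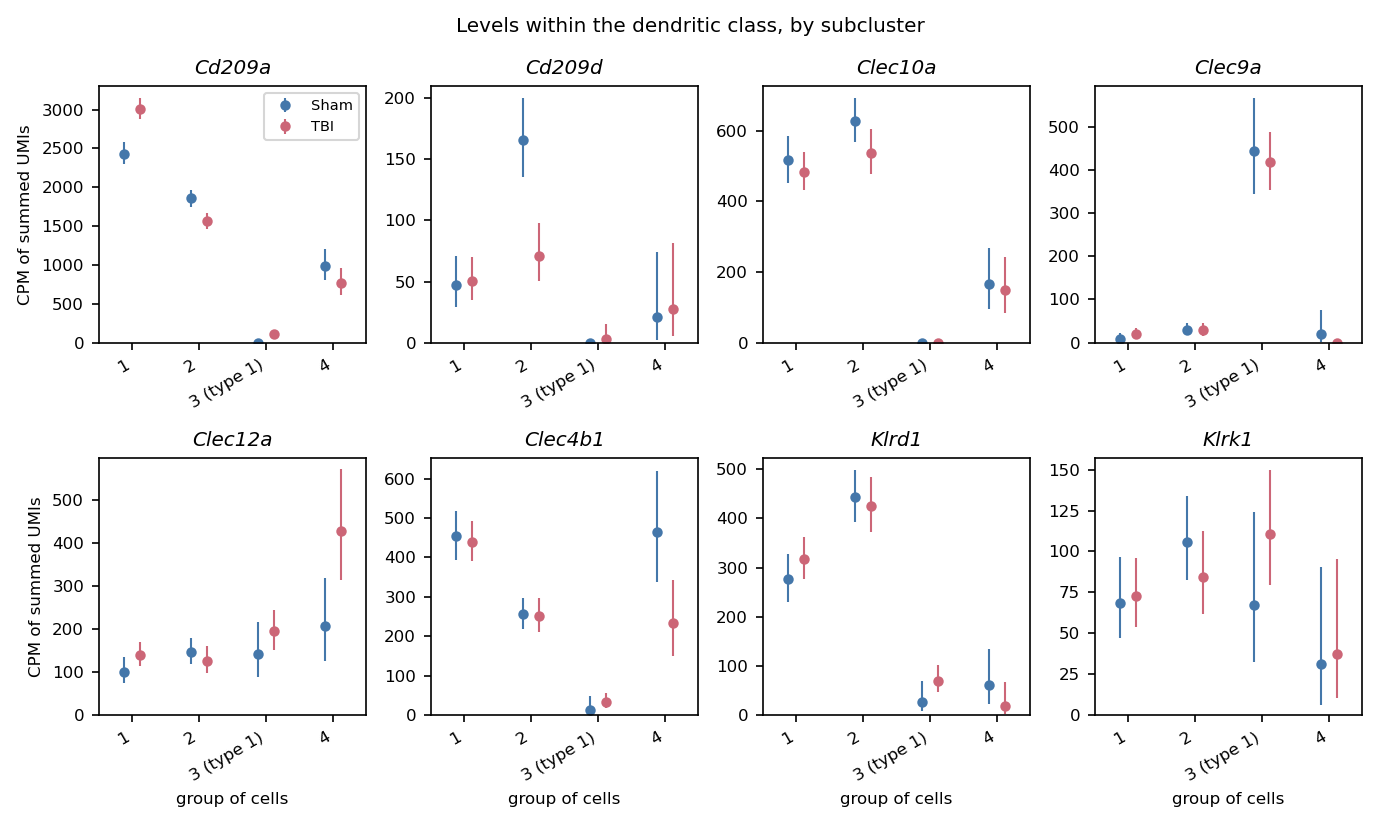
CPM of summed UMIs with exact Poisson intervals for 8 members in the 4 dendritic-like subclusters, Sham in blue and TBI in red, with no bar where a count was 0. Clec9a is confined mostly to subcluster 3, the type 1 subset, which is low in Cd209a, Clec10a and Klrd1, and Cd209d is higher in Sham in subcluster 2, where 50 of 108 Sham UMIs came from 1 cell.

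Killer lectin receptor genes were not limited to lymphocytes. Klrd1, which encodes CD94, the partner chain of the NKG2 receptors, measured 314 CPM in Sham and 278 CPM in TBI dendritic-like cells, where 58.3% and 58.5% of cells held a UMI. In plasmacytoid dendritic-like cells it measured 376 and 352 CPM. Its NKG2 partners Klrc1 and Klrc2 had at most 4 UMIs in either class of either library. B-like cells had 4 Sham UMIs and 0 TBI UMIs of Klrd1, a share of 1.11% and 0% of cells. With cells thinned to 1000 UMIs, to allow for the greater depth of dendritic-like cells (medians of 10488 and 8216 UMIs against 3083 and 2660 in B-like cells), the shares were 18.9% and 23.6% in dendritic-like and 0.617% and 0% in B-like cells. Klra17, another Ly49 gene, was a plasmacytoid dendritic-like gene at 260 CPM in Sham (38 UMIs) and 269 CPM in TBI (68 UMIs). Klri1 was highest in the migratory dendritic-like cells, at 34.3 and 65.7 CPM.

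In the NK-like class (89 Sham and 82 TBI cells), the members together made up 8783 CPM in Sham and 7490 CPM in TBI, more than in any other class of either library. Klrb1c, which encodes NK1.1, was 1145 CPM (1034 to 1265) in Sham and 985 CPM (875 to 1105) in TBI, and 92.1% and 86.6% of cells held a UMI, or 69.8% and 65% with cells thinned to 1000 UMIs. Klrk1, which encodes the activating receptor NKG2D, was 1098 and 978 CPM, and Klrd1 was 1045 and 829 CPM. Klre1, whose product pairs with those of Klri1 and Klri2, was 705 and 662 CPM. The CD94 partners Klrc1 (NKG2A, inhibitory) and Klrc2 (NKG2C, activating) were 493 and 455 CPM and 277 and 234 CPM. Klrb1a, Klrb1b, Klrb1f, Klri2 and Klrg1 lay between 142 and 282 CPM in the 2 libraries. Of the Ly49 genes, Klra8 (Ly49H, the activating receptor for a cytomegalovirus protein), Klra4 (Ly49D, activating), Klra9 (Ly49I), Klra7 (Ly49G2) and Klra3 (Ly49C), the last ones inhibitory receptors for MHC class I, were read at 166 to 581 CPM. In B-like cells Klrb1c, Klrk1 and Klra8 had no UMI in either library, which allows up to 2.71 CPM in Sham and 3.71 CPM in TBI (3 UMIs).

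The Ly49 genes share sequence close to their starts. In the RefSeq promoters (GRCm38.p6, 250 bases before to 50 after each start), 9 of the 11 Klra members held the 6 letters GAGGAA or their complement TTCCTC on either strand. These letters are the core that ETS factors such as PU.1 bind, and 31.3% of the 27025 genes with a promoter held them. Among other members with a promoter, 15 of 31 Clec and Cd209, 3 of 5 Klrb1 and 0 of 4 Klrc, Klrd and Klrk genes did. Klra4, Klra7 and Klra8, read mainly in NK-like cells, Klra6, highest in T-like cells with 30 UMIs in all, Klra2, read in myeloid cells, and Klra17, read in plasmacytoid dendritic-like cells, carried the letters in like surroundings. The stretches below, all on the minus strand and read 5′ to 3′, are shown to let this be seen, with the 6 letters in capitals.
Klra8, chr6:130129938-130129997: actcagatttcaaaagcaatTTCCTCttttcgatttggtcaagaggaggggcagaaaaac
Klra4, chr6:130067310-130067369: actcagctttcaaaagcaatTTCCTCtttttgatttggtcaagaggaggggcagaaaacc
Klra7, chr6:130233371-130233430: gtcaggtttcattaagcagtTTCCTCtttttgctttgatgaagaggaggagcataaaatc
Klra6, chr6:130027033-130027092: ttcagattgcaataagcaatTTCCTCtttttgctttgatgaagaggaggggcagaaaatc
Klra2, chr6:131247393-131247452: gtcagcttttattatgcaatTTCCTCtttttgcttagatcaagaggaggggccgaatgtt
Klra17, chr6:129876706-129876765: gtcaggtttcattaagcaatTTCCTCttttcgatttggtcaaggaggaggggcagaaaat

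Without gaps, the stretch of Klra4 was identical to that of Klra8 at 57 of 60 positions, and the stretches of Klra6, Klra7, Klra17 and Klra2 at 40 to 44. The letters were thus held by Ly49 genes read in NK-like cells and by those read in myeloid cells. A second set is shown because 2 NKR-P1 genes carried GAGGAA in 2 places and, further along, the letters TGTGGT, the core that Runx factors bind, with the same spacing. TGTGGT or ACCACA on either strand was held by 18.9% of all promoters, by all 4 of the Klrc, Klrd and Klrk members with a promoter in the table and by 1 of the 11 Klra members. No letters of one motif overlapped the other in these stretches.
Klrb1c, chr6:128788719-128788774: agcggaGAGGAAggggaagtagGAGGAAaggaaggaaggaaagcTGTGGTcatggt
Klrb1a, chr6:128623049-128623104: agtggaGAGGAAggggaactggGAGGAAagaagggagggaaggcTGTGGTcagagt
The Klrb1c and Klrb1a stretches were identical at 47 of 56 positions. A match of letters is a description and was not tested as a site.

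Most NK-like members were lower in TBI by a small amount. Of the 19 members with at least 20 UMIs in this class, 17 had a log2 ratio below 0 and 2 above, and the median was -0.27, against -0.02 over all 4541 genes tested. The NK marker list of this class summed to 33617 CPM in Sham and 28941 CPM in TBI (12 of 12 markers with a UMI in both). The macrophage list summed to 94.4 CPM (8 of 18) and 228 CPM (14 of 18), and the dendritic list to 517 CPM (9 of 13) and 791 CPM (12 of 13). That of Lyve1-type macrophages gave 11.8 and 13.6 CPM, and that of Ccr2-type macrophages 865 CPM (7 of 9) and 4412 CPM (8 of 9). The Ccr2-type list was high in dendritic-like cells too, at 79043 and 81489 CPM. The part of these lists in these values was not tested. By the 1.5-fold rule 0 of the 19 were higher and 1 was lower, where 8.85% and 11.2% of all genes were. Klra8 was 546 CPM in Sham (185 UMIs) and 374 CPM in TBI (110 UMIs), a log2 ratio of -0.54 (-0.90 to -0.20). Klra9 was 581 CPM and 414 CPM, a log2 ratio of -0.49 (-0.83 to -0.16), and Klrd1 had one of -0.33 (-0.58 to -0.09). Each interval stayed below 0 without the Sham cell with most UMIs of the gene, with log2 ratios of -0.47, -0.38 and -0.25. With predicted doublets removed and cells clustered anew, the log2 ratio of Klra9 was -0.18, while that of Klra8 was -0.51. Klra8, Klra9, Klrd1 and Klra1 were the 4 members with an interval below 0, and none had an interval above it. The shares of all genes with such intervals are not given, so this count is no result about the members.

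Klra1, the member past 1.5-fold, had 51 Sham and 15 TBI UMIs and a log2 ratio of -1.53 (-2.50 to -0.71), but 44 of the 51 Sham UMIs came from 1 cell. Its log2 ratio was 1.14 without that cell, 0.16 as a mean over cells, 1.32 with predicted doublets removed and cells clustered anew, and 1.25 without the limit on hemoglobin. Of the Klra7 UMIs of the Sham NK-like cells, 47 of 140 likewise came from 1 cell, and its log2 ratio was 0.11 without it. Ly49 genes are expressed by some NK cells and not by others, so that a class sum rests on few cells. The other named members of the class, Klra3, Klra4, Klra7, Klrb1a, Klrb1b, Klrb1c, Klrb1f, Klrc1, Klrc2, Klre1, Klrg1, Klri2, Klrk1 and Clec2d, had intervals that held 0 and log2 ratios from -0.41 for Klra3 to 0.35 for Klrb1b.

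The NK-like cells fell into 3 subclusters that differed in these genes. Subcluster 1, led by Ccl3, Nr4a2, Cma1 and Cx3cr1, held 52.8% of the class in Sham and 39% in TBI. Its Klra8 level was 837 CPM in Sham and 742 CPM in TBI, with a log2 ratio of -0.17 (-0.63 to 0.28). Subcluster 2, led by Cxcr6, Ckb and Tcrg-C4, held 23.6% and 31.7% and had only 2 Sham and 9 TBI UMIs of Klra8, and 0 and 13 of Klra4. It held 138 and 97 UMIs of Klrd1, a log2 ratio of -0.73 (-1.13 to -0.35), and 55 and 11 of Klra9, a log2 ratio of -2.50 (-3.63 to -1.60). These Klra9 UMIs came from 7 Sham and 5 TBI cells. Without 1 Sham cell the log2 ratio of Klra9 there was -2.07 (-3.23 to -1.115). Subcluster 1 held 116 and 89 UMIs of Klra9, where its log2 ratio was 0.35 (-0.06 to 0.76). In subcluster 3, led by Crtam, Klra8 had a log2 ratio of -0.71 (-1.35 to -0.11), or -0.47 (-1.13 to 0.16) without 1 Sham cell. Klra9 had one of -0.19 (-1.08 to 0.68) there. The intervals of Klrd1 held 0 in subclusters 1 and 3, with log2 ratios of -0.06 and -0.20.

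Single NK-like cells carried several Ly49 genes at once. Over 9 Klra genes (leaving out Klra2 and Klra17), the median number with a UMI was 2 in both libraries, and the highest was 5 in Sham and 7 in TBI. No Klra UMI was found in 13.5% of the 89 Sham cells and in 26.8% of the 82 TBI cells. With each cell thinned to 1000 UMIs, the share without a Klra UMI was 25.6% of 86 Sham cells and 35% of 80 TBI cells, and the share with 2 or more was 40.7% and 30%. The median was then 1 in both libraries.

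**Figure D5:**
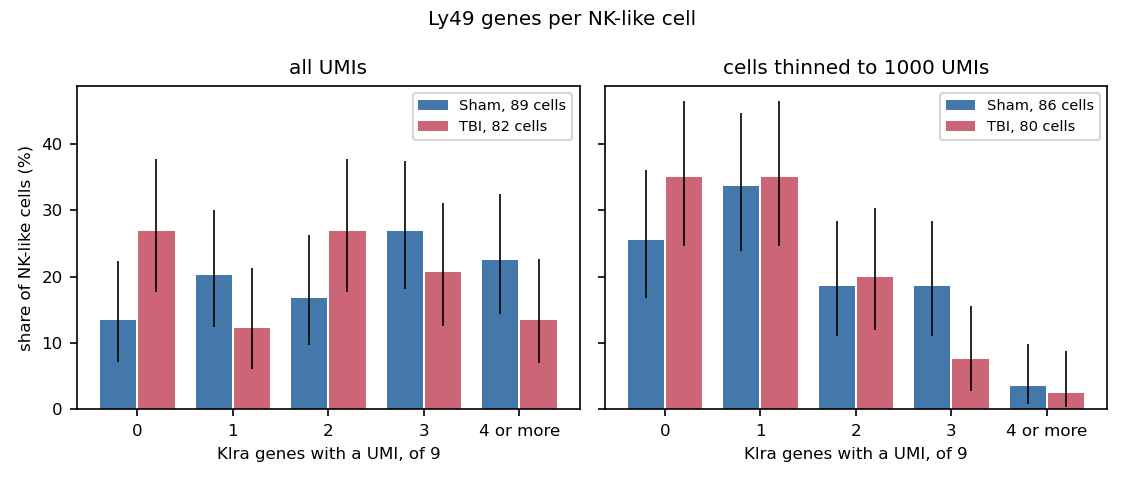
Share of NK-like cells (%) by the number of 9 Klra genes with a UMI, from all UMIs (left) and with cells thinned to 1000 UMIs (right), with exact binomial intervals, Sham in blue and TBI in red. After thinning, 40.7% of Sham and 30% of TBI cells held 2 or more of the genes, and the intervals of each pair of bars overlap.

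T-like cells (162 Sham, 235 TBI) held the killer lectin receptors at lower levels. Klrk1 was 274 CPM in Sham and 243 CPM in TBI, a log2 ratio of -0.17 (-0.48 to 0.13). Klrd1 was 207 and 268 CPM, a log2 ratio of 0.37 (0.05 to 0.70), opposite in sign to the NK-like cells, though the difference between the classes was not tested. Klra7 was 56.1 and 86.1 CPM, a log2 ratio of 0.60 (0.01 to 1.26), from 10 Sham and 24 TBI cells. Without the TBI cell with most UMIs of the gene these were 0.31 and 0.33, with intervals that held 0. Both depended also on how the class was drawn. With the predicted doublets left out of the class the log2 ratios were 0.52 for Klrd1 and 0.88 for Klra7, but with cells clustered anew without them they were 0.0427 and -0.26, and without the limit on hemoglobin 0.00869 and -0.48. Klre1, Klra1 and Clec2i were lower in TBI, with log2 ratios of -0.72 (-1.29 to -0.16), -0.72 (-1.29 to -0.15) and -0.69 (-1.19 to -0.19). With predicted doublets left out of the class, those of Klre1 and Klra1 were -0.47 and -0.44, with intervals that held 0, as they did without the Sham cell with most UMIs of the gene, at -0.52 and -0.42. Subcluster 3, led by Trdc and Tcrg-C1 among others, held 25 Sham and 29 TBI of the Klre1 UMIs and made up 19.8% of the class in Sham and 27.7% in TBI. The log2 ratio of Klre1 there was -0.69 (-1.51 to 0.15). In subcluster 1, with 15 and 5 UMIs, it was -2.10 (-4.01 to -0.66). In subcluster 2, with 12 UMIs in each library, it was -0.55 (-1.83 to 0.73). Klrb1c, Klrc1 and Clec2d had intervals that held 0, with log2 ratios of 0.28, 0.03 and -0.07.

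In T-like cells, 4 uptake and myeloid members were read almost wholly in TBI. Cd209a had 1 Sham and 80 TBI UMIs, Cd209d 0 and 34, Clec10a 0 and 23, and Clec4b1 1 and 20. The TBI level of Cd209d was 7.13 times and that of Clec10a 4.82 times a Sham floor of 3 UMIs. The lower limits of their log2 ratios were 2.46 and 1.85, while the log2 ratio of Cd209a was 5.08 (3.13 to 10.98). These UMIs lay in few cells. Subcluster 1 (60 Sham and 54 TBI cells), led by the class II genes H2-Ab1, H2-Eb1 and H2-Aa and by Cd74, held 78 of the 80 TBI UMIs of Cd209a, all 34 of Cd209d, 22 of the 23 of Clec10a and all 20 of Clec4b1, and no Sham UMI of any of them. Its macrophage markers summed to 116 CPM in Sham and 2215 CPM in TBI, and its dendritic markers to 251 CPM (8 of 13) and 1112 CPM (13 of 13). Of the 80 Cd209a UMIs 40 came from 1 cell, and 79 lay in the 16 TBI cells of this class predicted to be doublets, where Sham had 0 such cells. With predicted doublets left out of the class, Cd209a had 1 UMI in each library, Cd209d 0 in each, Clec10a 0 and 1 and Clec4b1 1 and 0. The members were among the genes used to predict doublets, so that the place of their UMIs is partly built into that prediction. The macrophage marker list in T-like cells summed to 99.9 CPM in Sham (12 of 18 markers with a UMI) and 684 CPM in TBI (16 of 18), and the dendritic list to 249 CPM (9 of 13) and 436 CPM (13 of 13). Their part in these values was not tested.

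By the 1.5-fold rule 6 of the 19 members tested in T-like cells were higher (these 4, Klra7 and Klrb1f) and 4 were lower (Klra9, Klra1, Klre1 and Clec2i), against 10.1% and 9.31% of 7157 genes. These 4 had 0 or 1 Sham UMI and reached the minimum for testing on TBI UMIs alone. Such counts are past the fold by construction, so that their place among the 6 is no result. Without subcluster 1 the members past the fold in either direction numbered 4 in place of 10. The number tested and the share of all genes past the fold without it are not given, so this count is no result about the members. The median was 0.03 over members and 0.0019 over all genes. In the ILC2 or Th2-like class (99 Sham, 126 TBI), 4 members were tested. Clec2i was higher (5 and 17 UMIs) and Klrb1b lower (14 and 7 UMIs) by that rule, with intervals that held 0, where 9.45% and 10.6% of genes were. Klrg1, an inhibitory receptor for cadherins, was read there at 75.6 and 69.4 CPM, and Clec2d had a log2 ratio of -0.34 (-0.81 to 0.14). The median was -0.23 over members and -0.0014 over all genes.

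The Clec2 genes, several of whose products are ligands of the NKR-P1 receptors, were widely read. Clec2d, which encodes the ligand of the inhibitory receptor of Klrb1b, was highest in migratory dendritic-like cells at 698 CPM in Sham and 620 CPM in TBI, and reached 675 and 623 CPM in endothelial-like cells. Those neighbours in the order had overlapping intervals. It had at least 1 UMI in every named class. Clec2i was 126 and 141 CPM in migratory dendritic-like cells and had no UMI in either library in the choroid plexus-like, pericyte or smooth muscle-like, Schwann-like and neutrophil-like classes. Clec16a, which carries the name but encodes a regulator of mitophagy, had 111 Sham and 156 TBI UMIs in all and led in the pineal-like class in Sham.

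In endothelial-like cells (308 Sham, 579 TBI), Clec14a, a vascular adhesion receptor that binds Mmrn2, was 901 CPM (828 to 979) in Sham and 1082 CPM (1027 to 1140) in TBI, a log2 ratio of 0.26 (0.12 to 0.41). Within the largest of the 4 clusters, cluster 3, the log2 ratio was -0.13 (-0.34 to 0.08). In cluster 12, whose level was higher and whose share of the class was 18.5% in Sham and 25.9% in TBI, it was 0.24 (0.01 to 0.48), or 0.19 (-0.04 to 0.43) without 1 TBI cell. Clec1a, a vascular lectin that binds fungal melanin, was 161 and 124 CPM, a log2 ratio of -0.37 (-0.74 to 0.00), and Clec2d had one of -0.12. Of the 4 members tested, 0 were higher and 1, Clec16a, lower by 1.5-fold, against 10.1% and 7.2% of 9039 genes. Their median was -0.24, against 0.02 over all genes.

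In fibroblast-like cells (69 Sham, 455 TBI), Clec11a, which encodes the bone and stem cell growth factor osteolectin, was 900 CPM (790 to 1020) in Sham and 996 CPM (948 to 1045) in TBI, a log2 ratio of 0.14 (-0.05 to 0.35), or 0.27 (0.07 to 0.49) with predicted doublets left out. Clec3b, which encodes the plasminogen-binding protein tetranectin, had 3 UMIs in Sham and 94 in TBI, a log2 ratio of 2.13 (0.76 to 4.65). A Clec3b UMI was found in 4.35% of Sham and 6.37% of TBI cells, and the 5 highest TBI cells held 56.4% of the UMIs. Predicted doublets held 1 of the 94. Without the TBI cell with most of them the log2 ratio was 1.67, with an interval above 0. The log2 ratio was between 1.22 and 1.32 without the limit on hemoglobin, with the members included in the clustering and at resolution 0.4. Cluster 5, left without a name and outside this class, held 3 Sham and 6 TBI UMIs of Clec3b, at 31.4 and 10.2 CPM. Clec2d had a log2 ratio of 0.05.

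Of the myeloid members, 5 with at least 20 UMIs in the fibroblast-like class had none in Sham, while Clec12a had 1 Sham and 10 TBI UMIs. Cd209a had 0 Sham and 54 TBI UMIs, of which 38 came from 1 cell and 38 lay in predicted doublets. Its TBI level was 2.92 times a Sham floor of 3 UMIs, and the lower limit of its log2 ratio was 1.20. Clec4a1, Clec4a3, Cd209f and Clec10a had 0 Sham and 23 to 25 TBI UMIs, and 16 to 21 of those UMIs lay in predicted doublets. Their TBI levels were 1.25 to 1.35 times that floor. The intervals of Clec4a1, Cd209f and Clec10a held 0, with lower limits from -0.10 to -0.03, and that of Clec4a3 began at 0.03. With predicted doublets left out of the class, each of the 4 had 3 to 8 TBI UMIs. The class held 9 Sham and 16 TBI predicted doublets. Macrophage markers summed to 338 CPM in Sham (9 of 18 with a UMI) and 1659 CPM in TBI (18 of 18), and their part in these values was not tested.

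By the 1.5-fold rule 8 of the 10 members tested were higher and 0 lower in fibroblast-like cells, against 12.3% and 15% of 9485 genes. Of these 10, 5 had no Sham UMI and reached the minimum for testing on TBI UMIs alone. With 0.5 UMI added, such counts are past the fold by construction, so that their place among the 8 is no result. The intervals of 3 of the 10 lay above 0, and the share of all genes with such an interval is not given. With members absent from Sham set at a floor of 3 UMIs, 4 were higher. The median log2 ratio was 2.53, or 0.41 with those members at that floor, against -0.06 over all genes.

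Genes that work with these receptors gave mostly small differences. Of 14 signalling partners, 13 were tested in macrophage-like cells, 0 were higher and 2 lower by 1.5-fold (Plcg1 and Plcg2), and 12 in NK-like cells, where Ptpn11 was higher and Syk and Plcg2 were lower. Over all genes tested, 7.44% were higher and 5.17% lower in macrophage-like cells, and 8.85% and 11.2% in NK-like cells. In NK-like cells the adaptors Tyrobp and Fcer1g were also lower, from 4156 to 3465 CPM and from 3887 to 3190 CPM, log2 ratios of -0.26 (-0.38 to -0.15) and -0.29 (-0.41 to -0.16). In dendritic-like cells 1 of 12 was past the fold (Malt1, lower), and in ILC2 or Th2-like cells 3 of 8 were (Vav1 higher, Malt1 and Fcer1g lower). Over all genes, 9.1% and 9.45% were higher in these classes and 5.31% and 10.6% lower. Fcer1g and Tyrobp, which myeloid and NK cells express, were the 2 past the fold, both higher, of 11 in T-like and of 8 in endothelial-like cells. With Ptpn6 they were the 3 of 6 in fibroblast-like cells, all higher. Over all genes, 10.1%, 10.1% and 12.3% were higher in these 3 classes and 9.31%, 7.2% and 15% lower.

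Of the 19 ligands listed, 16 were among the genes and 4 to 7 were tested in each of the 7 classes. None was past 1.5-fold in any. The class I heavy chain H2-D1, read by Ly49 receptors, was 3908 CPM in Sham and 4820 CPM in TBI NK-like cells, a log2 ratio of 0.30 (0.19 to 0.41), and 2565 and 3029 CPM in macrophage-like cells, one of 0.24 (0.19 to 0.29). Of 25 other genes with a C-type lectin-like domain, 2 of the 10 tested in macrophage-like cells were higher (Mrc2 and Cd69) and 1 lower (Colec12, 55 and 48 UMIs, a log2 ratio of -1.39). In endothelial-like cells 5 of 8 were higher (Mrc1, Ly75, Selp, Colec12 and Cd302) and 0 lower, where 10.1% and 7.2% of all genes were. Macrophage markers summed in these cells to 359 CPM in Sham (10 of 18 with a UMI) and 839 CPM in TBI (18 of 18) and fibroblast markers to 1588 CPM (10 of 13) and 3367 CPM (13 of 13), and their part in these values was not tested. Elsewhere the counts past the fold were 1 of 7 in dendritic-like cells (Asgr2, higher), 1 of 3 in NK-like cells (Cd69, lower) and 0 of 2 in ILC2 or Th2-like cells. In T-like cells 2 of 5 were (Ly75 and Mgl2, 1 higher and 1 lower), and in fibroblast-like cells 3 of 10 (Mrc1, Mgl2 and Cd93, 2 higher and 1 lower). The shares of all genes in these classes and in macrophage-like cells are those given above for the signalling partners.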

How the data were processed

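Single-cell suspensions of dorsal meninges gave 1 Sham and 1 TBI library. The deposited values are raw UMI counts per gene and barcode, made by the authors with Cell Ranger (2.1.1 in the submitters' processing notes and 3.1.0 in the matrix header, while the methods name another version) on mm10, with no normalization. Cells with 150 to 5000 genes, at most 20% mitochondrial and at most 5% hemoglobin UMIs were kept, which left out 604 Sham and 431 TBI barcodes over the last limit. Log-scaled counts of 2000 variable genes (scanpy 1.11.5, members left out) gave 20 principal components and Leiden clusters (leidenalg 0.10.2, resolution 0.8). Names required 3 or more markers from 1 list within the top 100 genes of the cluster, and 2 clusters stayed unnamed. Subclusters used the same steps. Doublets predicted by simulation (33 Sham, 114 TBI) were kept and removed in an alternative. That prediction did not leave out the members. The number called per library was set in advance, at a rate of 0.8% per 1000 cells.

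UMIs were summed per class and library. CPM has exact Poisson intervals, shares have exact (Clopper-Pearson) binomial intervals and log2 ratios, with 0.5 UMI added, have intervals from an exact binomial one, all at 95%. Intervals and floors cover counting error only. With 1 library per group no test was made. Ratios were computed for genes with at least 20 UMIs in a class, and the code was tested on simulated data. Members with 100 UMIs in all, or 50 in a class for ratios, are named. The members and lists were chosen with earlier results of these data known. Overlapping genes and close copies such as the Ly49 genes may share reads, depending on settings not given in the sources used here. Sequences are from RefSeq (GRCm38.p6), whose table held 54 of the 64 members.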

Additional observations from a re-analysis of the deposited data

Results flagged for a closer look

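Members whose counting intervals lay on opposite sides of 0 in different classes are given here. The difference between classes was not tested, and each class is 1 library against 1.

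Klrd1 was lower in TBI in NK-like cells, with a log2 ratio of -0.33, and in macrophage-like cells, at -1.68 from 17 and 12 UMIs. Of those 17, 8 came from 1 of 4 Sham cells, and without it the log2 ratio was -0.82 (-2.17 to 0.63). It was higher in T-like cells, at 0.37. Cd209a was lower in macrophage-like cells, at -0.48, and higher in T-like cells, at 5.08, and in fibroblast-like cells, at 4.15. Cd209d was lower in macrophage-like cells, at -1.20, and in dendritic-like cells, at -1.10, and higher in T-like cells, at 5.44. Clec10a was lower in dendritic-like cells, at -0.39, and higher in T-like cells, at 4.89. The values of Cd209d and Clec10a in T-like cells, and that of Cd209a in fibroblast-like cells, rest on 0 Sham UMIs and on the 0.5 UMI added, and are no bounds. In the T-like class, 79 of 80 TBI UMIs of Cd209a, all 34 of Cd209d and 22 of 23 of Clec10a lay in predicted doublets. Without the cell with most UMIs of the gene, the intervals of Cd209a and Cd209d in macrophage-like cells, of Cd209d in dendritic-like cells and of Klrd1 in T-like cells held 0.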

How the results depend on the processing

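Of 1088 values of the 104 log2 ratios under the alternatives, 1043 stayed within the counting interval, 29 moved outside it and 16 changed the sign of a ratio whose interval had left out 0. With predicted doublets removed and cells clustered anew, Klra1 in NK-like cells became 1.32, and in T-like cells Clec4b1 became -1.97, Klra7 -0.26, Cd209a -0.38 and Cd209d -0.38. With these doublets only left out of the T-like class, Cd209d had 0 UMIs in each library, Cd209a 1 in each and Clec4b1 1 and 0. At such counts a ratio rests mostly on the 0.5 UMI added and on the class totals, and its sign is no result. Without the hemoglobin limit, Klra1 in NK-like cells was 1.25 and Klra7 in T-like cells -0.48. As means over cells, Cd209b in macrophage-like cells was 0.34, Clec10a in dendritic-like cells 0.0681 and Klra1 in NK-like cells 0.16. At resolution 0.4, Klrd1 and Klra7 in T-like cells were -0.36 and -0.40, and no NK-like or dendritic-like class was named, so that 22 of 43 members kept their leading class. With members included in clustering, Cd209a in macrophage-like cells was 0.0455. Without the 1 cell with most UMIs of the gene, Klra1 in NK-like cells was 1.14. Without T-like subcluster 1, Clec4b1 was -2.28 and Cd209d -0.69 in T-like cells. These rest likewise on the 0.5 UMI added, since outside that subcluster Cd209d had no UMI in either library and Clec4b1 had 1 Sham UMI. The count of members past 1.5-fold was 0 (minimum of 50 UMIs) and 7 (minimum of 10) in place of 4 in macrophage-like cells, 3 (minimum of 50) in place of 6 in dendritic-like cells, and 2 (minimum of 10) in place of 1 in NK-like cells. It was 5 (minimum of 50), 4 (doublets removed) and 4 (without subcluster 1) in place of 10 in T-like cells, 0 (minimum of 50) in place of 2 in ILC2 or Th2-like cells, and 0 (minimum of 50) and 2 (minimum of 10) in place of 1 in endothelial-like cells. In fibroblast-like cells it was 2 (minimum of 50), 1 (doublets removed) and 4 (resolution 1.6) in place of 8. At the minimum of 50 the members tested were 17 in macrophage-like, 18 in dendritic-like, 18 in NK-like and 10 in T-like cells. They were 1 in ILC2 or Th2-like, 3 in endothelial-like and 4 in fibroblast-like cells. The numbers tested under the other settings, and the shares of all genes past the fold, are not given here, so these counts are no result about the members. The causes were not tested. Removing shared barcodes and leaving out macrophage-like cluster 9, the type 1 subset, dendritic-like subcluster 4, T-like subcluster 1 or the cell with most UMIs of a gene (in the library where its CPM was higher) were chosen after seeing the data. No paired analysis was possible because each group has 1 library. In the neutrophil-like class, with 16 Sham and 26 TBI cells, the interval of Clec4d ran from -1.85 to -0.03.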

Other observations

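The 2 clusters left without a name also held members. Cluster 5 (55 Sham and 308 TBI cells), led by Snhg11, Foxp2 and Bnc2, had 26 Sham and 204 TBI UMIs of Clec11a. These were 272 and 345 CPM, the highest level of that gene outside the fibroblast-like class. Clec3b had 3 Sham and 6 TBI UMIs there, at 31.4 and 10.2 CPM. Whether cluster 5 holds fibroblasts was not tested, and the fibroblast-like values above leave it out. Cluster 15, a shallow cluster, had 33 and 53 UMIs of Clec10a (537 and 446 CPM) and 12 and 24 of Clec4a2. In the neutrophil-like cells Clec5a had 2 Sham and 13 TBI UMIs, and in the monocyte-like cells Clec4n had 23 and 1, with 2 Sham cells holding the 23.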
